A study of Mus musculus with 8 samples.

Results

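The genes of the CNTF and IL-6 cytokine family described here are *Cntfr*, *Il6ra* and *Il11ra1*, which encode the receptors that bind the ligand, *Lifr*, *Il6st* and *Osmr*, which encode the subunits that carry the signal into the cell, and *Clcf1*, which encodes a ligand of the CNTF receptor. These 7 genes of the 31053 counted were chosen by gene family after *Cntfr* had been found lower in *Ifnar1*-/- glutamatergic neurons, so their genotype difference in those neurons, and that of *Cntfr* in any cell class, is given as a description with no test. A further 46 genes of the same pathway (ligands, other receptors, kinases, inhibitors, shedding proteases and known STAT3 targets) were counted beside them.

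Cortex was taken from 8 untreated C57BL6J mice aged 6 weeks, 4 of them wild-type (Wt) and 4 *Ifnar1*-/-, which lack the receptor subunit for type I interferons throughout the body. Each genotype had 2 females (F1, F2) and 2 males (M1, M2), and each mouse gave 1 single nuclei RNA sequencing (snRNA-seq) library made with the Single Cell 3' v3 chemistry. The comparison asks how loss of *Ifnar1* and the sex of the animal bear on the expression of these receptors in each cortical cell class. Its unit is the library, 1 for each mouse. Expression is counted by the unique molecular identifier (UMI), a tag that counts 1 captured RNA molecule.

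CNTF binds a receptor that has no signalling domain of its own and is held at the cell surface by a lipid anchor, and the pair then recruits the LIF receptor and gp130, the product of *Il6st*. IL-6 and IL-11 work in the same manner through their own binding receptors and gp130, and oncostatin M uses the product of *Osmr* with gp130. All of them activate Janus kinases and STAT3. In the brain this family is known for the survival of motor neurons, the differentiation of glia and the reactive state of astrocytes, and IL-6 receptor is known as a marker of microglia.

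The libraries held between 44063346 (*Ifnar1*-/- F1) and 58423423 (Wt M1) UMIs. Wt F1, F2, M1 and M2 held 55053026, 50295802, 58423423 and 46076959 UMIs, and *Ifnar1*-/- F1, F2, M1 and M2 held 44063346, 46079274, 58057084 and 48344790. Of 56780 barcodes, 52079 were kept as single nuclei, 26197 Wt and 25882 *Ifnar1*-/-. Any pair of libraries shared between 3 and 23 barcodes of kept nuclei, 326 barcodes in all, and no library was left out for it. At these depths, 3 UMIs over all kept nuclei correspond to 0.00804 CPM (counts scaled to a common library total), the level that a count of 0 still allows for counting error alone.

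The nuclei formed 57 clusters, named by their resemblance to marker genes, and each cell type name below means clusters that resemble that type. They were built without the 7 genes and the pathway genes. Glutamatergic neurons (26522 nuclei), GABAergic interneurons (6658), oligodendrocytes (7084), microglia (4385) and oligodendrocyte precursors (452) had at least 10 nuclei in every library. Newly formed oligodendrocytes (217), astrocytes (164) and perivascular macrophages (96) fell below 10 nuclei in some libraries and were left out of the fits by genotype and sex, and below they enter only the comparisons of levels between cell types. Astrocytes were 0.315% of the nuclei, 5 to 63 in a library. A further 2259 nuclei resembled striatal projection neurons, and 4242 nuclei, 7.78% of Wt and 8.52% of *Ifnar1*-/-, had no name. Among glutamatergic neurons, 21.2% in Wt and 21.3% in *Ifnar1*-/- were given no layer type.

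*Ifnar1* itself was read first. Over all nuclei it stood at 19.9, 16.8, 17.2 and 18.3 CPM in Wt F1, F2, M1 and M2, after TMM normalization, which scales libraries to a common composition. The *Ifnar1*-/- libraries gave 14.4, 14.2, 16.7 and 15.9 CPM in the same order, each under the lowest Wt library. The transcript was thus still counted in the knockout, and 3' counts do not show which part of it was present. In microglia, *Ifnar1* ran from 43.8 to 63.95 CPM in Wt and from 24.5 to 35.9 in *Ifnar1*-/-, a log2 fold change of -0.81 (SE 0.22) that did not pass the threshold (Benjamini-Hochberg adjusted p = 1.00, edgeR). In glutamatergic neurons its log2 fold change was -0.22 (SE 0.12, unadjusted p = 0.109, edgeR).

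A pair of interferon-responsive genes, read in microglia, served as a check of the genotype labels. *Irf9*, a part of the interferon-stimulated transcription factor complex, ran from 38.3 to 63.1 CPM in Wt microglia and from 11.7 to 18.4 in *Ifnar1*-/- (log2 fold change -1.79, SE 0.26, Benjamini-Hochberg adjusted p = 0.0301, edgeR). *Ifi27* ran from 54.7 to 70.7 CPM and from 3.90 to 24.5 (log2 fold change -2.45, SE 0.34, Benjamini-Hochberg adjusted p = 0.0226, edgeR). All 4 *Ifnar1*-/- libraries lay below all 4 Wt libraries in both genes. Over all nuclei the genotypes overlapped in UMIs, from 377 to 640 in Wt and 347 to 462 in *Ifnar1*-/- for *Irf9*. For *Ifi27* they ran from 335 to 582 and from 261 to 542. With 7 libraries the *Irf9* call was lost without Wt F1 (0.125), Wt F2 (0.0763), Wt M2 (0.0999), *Ifnar1*-/- F1 (0.0848), M1 (0.135) or M2 (0.162), and the *Ifi27* call without Wt F1 (0.0791), Wt M2 (0.0889), *Ifnar1*-/- M1 (0.110) or M2 (0.0882), each an edgeR adjusted p by Benjamini-Hochberg. In nuclei with more than 2000 UMIs *Irf9* had a log2 fold change of -1.96 and did not pass (Benjamini-Hochberg adjusted p = 0.999, edgeR), and *Ifi27* has no value there.

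*Cntfr*, the CNTF-binding receptor (ENSMUSG00000028444, chr4:41657498-41697089, minus strand, GRCm38), gave 19076 UMIs, 12326 in Wt and 6750 in *Ifnar1*-/-. In glutamatergic neurons it stood at 76.1, 67.3, 64.8 and 82.7 CPM in Wt F1, F2, M1 and M2. In *Ifnar1*-/- F1, F2, M1 and M2 it stood at 23.8, 32.2, 33.1 and 38.5 CPM. The highest knockout library lay well under the lowest Wt library, and F1 was the lowest of the knockouts. The means were 72.7 ± 8.23 and 31.9 ± 6.08 CPM (SD, n = 4), which put the knockout at 43.8% of Wt and gave a fitted log2 fold change of -1.19 (SE 0.15). Without each library in turn it lay between -1.29 and -1.07. This contrast chose the gene, and in it 11 of 18535 genes (0.0593%) passed an adjusted p of 0.05 with edgeR and Benjamini-Hochberg. That count was 4 without Wt F1 or M1, 5 without *Ifnar1*-/- F1 or M2, and 6 without Wt M2 or *Ifnar1*-/- F2. It was 42 by DESeq2 and 26 with sex as a covariate.

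The knockout values were lower in all 9 named layer types of glutamatergic neurons, and the size of the difference varied among them. Near-projecting (NP) neurons of layers 5 and 6 had the widest gap, at 235, 180, 174 and 151 CPM in Wt F1, F2, M1 and M2 against 16.2, 28.3, 34.3 and 52.7 in *Ifnar1*-/-. Here the means of 185 and 32.9 CPM differed 5.63-fold. Corticothalamic (CT) neurons of layer 6 averaged 123 ± 10.9 and 31.9 ± 6.48 CPM, a 3.86-fold difference. Layer 4 intratelencephalic (IT) neurons averaged 72.4 ± 13.2 and 20.7 ± 5.74 CPM, or 3.49-fold. These 3 types had log2 fold changes of -2.47 (SE 0.26), -1.95 (SE 0.15) and -1.80 (SE 0.20).

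The other layer types differed less. Layer 5 IT neurons averaged 59.6 ± 10.6 CPM in Wt and 25.3 ± 7.07 in *Ifnar1*-/-, with a log2 fold change of -1.22 (SE 0.21). In layer 6 IT neurons the averages were 58.5 ± 8.36 and 30.6 ± 6.996 CPM (-0.93, SE 0.19), and in layer 2/3 IT neurons 66.2 ± 9.33 and 35.6 ± 7.06 CPM (-0.90, SE 0.17). Extratelencephalic (ET) neurons of layer 5 kept the highest knockout level among the numbered layers, 68.2 ± 8.18 CPM against 116 ± 14.2 in Wt (-0.76, SE 0.13). Layer 6b neurons had the lowest Wt level, 32.2 ± 4.83 CPM against 18.6 ± 6.09 in the knockout (-0.75, SE 0.23). Neurons of the Car3 and claustrum type had the smallest fold change of the 9, 121 ± 7.58 against 84.1 ± 21.2 CPM (-0.51, SE 0.21), and there *Ifnar1*-/- M2 at 110.562 CPM lay just under Wt F2 at 110.578. Glutamatergic neurons without a layer name averaged 40.7 ± 5.81 and 28.4 ± 5.28 CPM (-0.52, SE 0.16). The genotypes did not overlap in any of the 9 layer types. These types are part of the class that chose the gene, so the separation is no independent result and was not tested. In the layer types the knockout therefore spanned a narrower range of means than Wt, from 18.6 to 84.1 CPM against 32.2 to 185.

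**Figure D1:**
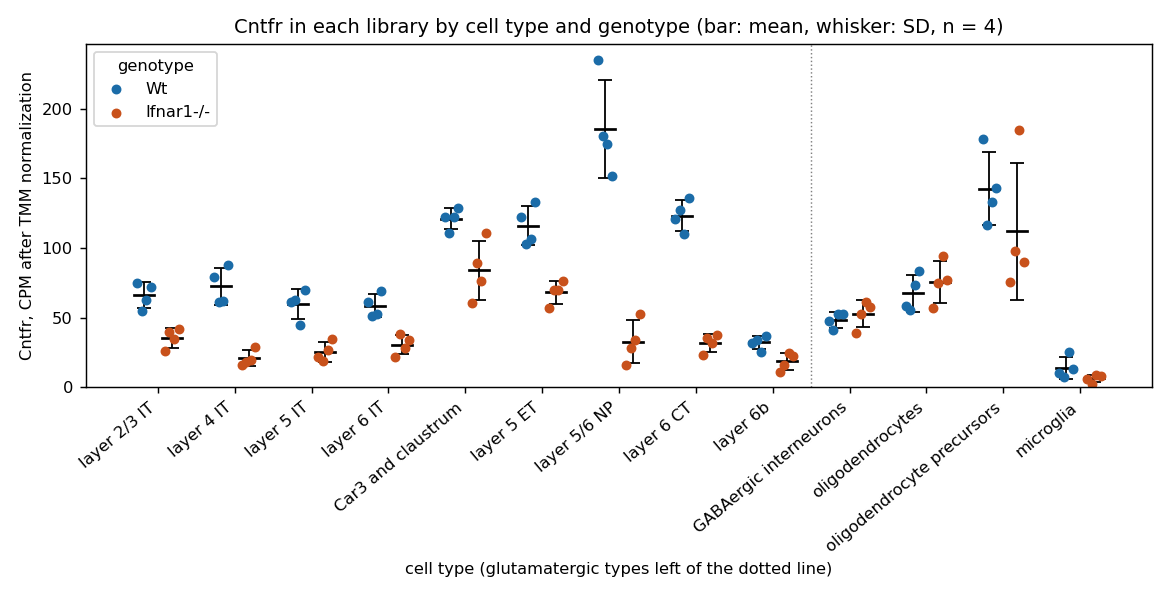
*Cntfr* in CPM after TMM normalization (vertical axis) by cell type (horizontal axis, glutamatergic types left of the dotted line), with 1 point for each library, bars at the mean and whiskers of 1 SD (n = 4 per genotype). The genotypes stood apart in the glutamatergic types, most widely in NP neurons of layers 5 and 6 (185 against 32.9 CPM), and overlapped in GABAergic interneurons and oligodendrocytes.

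In the other classes where *Cntfr* passed the filter on low counts, its values overlapped between the genotypes. GABAergic interneurons held 47.2, 40.8, 52.7 and 52.5 CPM in Wt F1, F2, M1 and M2, and 39.1, 52.7, 61.6 and 57.8 in *Ifnar1*-/-, a log2 fold change of 0.13 (SE 0.15). Oligodendrocytes held 58.0, 55.4, 73.2 and 83.2 CPM in Wt and 56.8, 74.6, 93.9 and 77.1 in *Ifnar1*-/-, a log2 fold change of 0.16 (SE 0.19). Without each library in turn the log2 fold changes ran from 0.05 to 0.25 in GABAergic interneurons and from 0.04 to 0.29 in oligodendrocytes. In both classes the genotypes overlapped, and the males tended to the upper end. Oligodendrocyte precursors averaged 143 ± 26.1 and 112 ± 49.4 CPM (-0.47, SE 0.31), with *Ifnar1*-/- M1 the highest library of all 8 at 185 CPM. Whether the difference in glutamatergic neurons departs from that in the other classes was not tested.

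Microglia gave 65 *Cntfr* UMIs, too few to pass the filter on low counts, at 14.0 ± 8.06 CPM in Wt and 6.36 ± 2.75 in *Ifnar1*-/-. All 6 glutamatergic marker genes were also counted in microglia, none of them at 0, with *Camk2a* the most abundant. Summed, they stood at 180, 192, 360 and 265 CPM in Wt F1, F2, M1 and M2 and at 259, 111, 277 and 397 in *Ifnar1*-/-. Their part in the microglial *Cntfr* counts was not tested. In glutamatergic neurons the 7 astrocyte markers summed to 407 CPM in Wt and 449 in *Ifnar1*-/-, none of them at 0. *Slc1a2* gave most of that sum, with 103900 of the 255363337 UMIs of the class. The part of these markers in the *Cntfr* values was not tested either. Glutamatergic neurons held 77.1% of all *Cntfr* UMIs in Wt and 59.3% in *Ifnar1*-/-.

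The *Cntfr* gene region was then read in the same neurons. Of 32 annotated genes within 500 kb, 17 passed the filter in glutamatergic neurons, and their log2 fold changes ran from -0.26 to 0.18 with a median of -0.06, 13 of them under 0 and 4 over. The nearest other member, *Il11ra1*, lies on the opposite strand, with 2899 bases between the ends of the annotated spans of the genes. Its promoter windows lie farther from *Cntfr*, at chr4:41760193-41760492 and chr4:41762060-41762359. *Il11ra1* had a log2 fold change of 0.17 (SE 0.10). The genotype difference of *Cntfr* was then compared between the sexes, and in glutamatergic neurons the male minus female difference of log2 fold changes was 0.31 (SE 0.25), also given with no test. Without each library in turn it lay between 0.11 and 0.55.

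*Il6ra*, the IL-6-binding receptor (ENSMUSG00000027947, chr3:89864059-89913196, minus strand), gave 4252 UMIs, 78.0% of them in microglia. In microglia it stood at 611, 598, 396 and 501 CPM in Wt F1, F2, M1 and M2, and at 393, 545, 430 and 476 in *Ifnar1*-/-. The genotypes overlapped, with Wt F1 and F2 the highest and *Ifnar1*-/- F1 and Wt M1 the lowest. The log2 fold change was -0.18 (SE 0.18, Benjamini-Hochberg adjusted p = 1.00, edgeR). *Ifnar1*-/- F1 had 155 microglial nuclei, the fewest of any library, and the class had a median of 1472 UMIs per nucleus.

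Neurons of the deepest layers also held *Il6ra* UMIs, 233 in layer 6 CT and 123 in layer 6b. In layer 6 CT they came to 7.45, 7.27, 1.83 and 6.10 CPM in Wt F1, F2, M1 and M2 and to 14.8, 7.07, 10.1 and 11.1 in *Ifnar1*-/-. In layer 6b they came to 5.45, 9.10, 6.40 and 6.34 CPM and to 19.3, 11.2, 8.82 and 10.9. In each of these types 3 of the 4 knockout libraries lay above every Wt library, and the remaining knockout library fell inside the Wt range. The log2 fold changes were 0.91 (SE 0.38) and 0.82 (SE 0.31). They were 0.37 (SE 0.41) in layer 2/3 IT neurons, -0.23 (SE 0.43) in glutamatergic neurons without a layer name and 0.41 (SE 0.22) over all glutamatergic neurons, with overlap between genotypes in each, and no other layer type passed the filter. All of these lie within the contrast that chose the genes and so have no test. *Ifnar1*-/- F1 was the highest library in both types. It also held the most RNA of 7 microglial marker genes in glutamatergic neurons, 167 CPM against 111 in the next library, with means of 99.5 in Wt and 116 in *Ifnar1*-/-, and the part of these markers in the *Il6ra* values was not tested.

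RNA of microglial marker genes is also counted in other nuclei. *Il6ra* was therefore set against the summed UMIs of the same 7 marker genes in each type, over both genotypes together. The leading marker differed between classes. It was *C1qa* in microglia (32793 of 127972 marker UMIs) and *P2ry12* in glutamatergic neurons (13851 of 27056) and GABAergic interneurons (2594 of 6391). The source of the marker UMIs in neurons was not tested, so the ratios do not tell *Il6ra* made in a type from RNA of microglia. Microglia held 2.59 *Il6ra* UMIs per 100 marker UMIs. Layer 6 CT and layer 6b neurons held 7.99 and 7.97, and layer 6 IT neurons 4.06. Striatal projection neurons were not compared in this way. Each of the other neuron types had a lower ratio than microglia, with 1.73 in layer 5 IT, 1.47 in layer 2/3 IT, 0.921 in layer 5 ET, 0.763 in layer 4 IT, 0.954 in Sst and 0.344 in Pvalb interneurons. Oligodendrocytes held 0.688, and oligodendrocyte precursors held no *Il6ra* UMI beside 230 marker UMIs.

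*Il11ra1*, the IL-11-binding receptor (ENSMUSG00000073889, chr4:41699989-41769474, plus strand), gave 12161 UMIs, 5989 in Wt and 6172 in *Ifnar1*-/-. Its annotated span holds *Galt* on the same strand over 3468 bases, for which no UMI was counted, and 4 genes on the opposite strand, and overlaps a further one there by 8 bases. NP neurons had the highest level, with 162, 149, 148 and 139 CPM in Wt F1, F2, M1 and M2 and 174, 195, 182 and 162 in *Ifnar1*-/-. All 4 knockout libraries lay above the Wt libraries, with *Ifnar1*-/- M2 at 161.878 CPM next to Wt F1 at 161.682. In the same neurons *Cntfr* ran the other way, and both differences lie within the contrast that chose the genes. The log2 fold change in NP neurons was 0.25 (SE 0.13). It was larger in Car3 and claustrum (0.61, SE 0.27), layer 6b (0.35, SE 0.18) and layer 6 CT neurons (0.31, SE 0.12), where the genotypes overlapped, and ran from 0.09 to 0.21 in the other 5 layer types. Over all glutamatergic neurons the level was 33.7 ± 1.66 CPM in Wt and 37.9 ± 4.64 in *Ifnar1*-/-.

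The remaining classes gave *Il11ra1* values that overlapped between genotypes. Log2 fold changes were -0.04 (SE 0.12) in GABAergic interneurons, 0.48 (SE 0.26) in oligodendrocytes and -0.01 (SE 0.25) in microglia. Oligodendrocytes had the lowest level of any type, from 8.15 to 12.1 CPM in Wt and from 11.2 to 19.5 in *Ifnar1*-/-. The sign in GABAergic interneurons turned without Wt F2 (0.02) or *Ifnar1*-/- M2 (0.00). In microglia it turned without Wt M1 (0.01), Wt M2 (0.06), *Ifnar1*-/- M1 (0.09) or M2 (0.12).

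*Lifr*, the signalling subunit shared by LIF, CNTF and their relatives (ENSMUSG00000054263, chr15:7090614-7197489, plus strand), gave 13171 UMIs, 6525 in Wt and 6646 in *Ifnar1*-/-. Microglia held 137, 140, 108 and 113 CPM in Wt F1, F2, M1 and M2 and 129, 142, 115 and 137 in *Ifnar1*-/-. The genotypes overlapped, with Wt M1 and M2 the lowest libraries. The log2 fold change was 0.07 (SE 0.16) in microglia, 0.04 (SE 0.18) in oligodendrocytes, -0.04 (SE 0.16) in GABAergic interneurons and -0.19 (SE 0.29) in oligodendrocyte precursors. Glutamatergic neurons held 31.4 ± 2.77 CPM in Wt and 35.8 ± 5.67 in *Ifnar1*-/-, again with overlap.

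*Il6st*, which encodes the common subunit gp130 (ENSMUSG00000021756, chr13:112464070-112510086, plus strand), gave 7774 UMIs, 3967 in Wt and 3807 in *Ifnar1*-/-. In microglia it stood at 194, 218, 259 and 148 CPM in Wt F1, F2, M1 and M2 and at 233, 239, 229 and 172 in *Ifnar1*-/-. The M2 library was the lowest in both genotypes, and the ranges overlapped. Log2 fold changes were 0.09 (SE 0.19) in microglia, 0.09 (SE 0.19) in oligodendrocytes and -0.02 (SE 0.11) in GABAergic interneurons. In glutamatergic neurons the level was 13.1 ± 0.995 CPM in Wt and 13.7 ± 0.508 in *Ifnar1*-/-.

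*Osmr*, the oncostatin M receptor subunit (ENSMUSG00000022146, chr15:6813577-6874969, minus strand), gave 107 UMIs in all 8 libraries, 47 in Wt and 60 in *Ifnar1*-/-. Of these, 68 were in glutamatergic neurons, 12 in GABAergic interneurons, 12 in oligodendrocytes and 0 in microglia. It did not pass the filter for the genotype contrast in any class, and no fold change is given. At this depth its level in cortical nuclei was not resolved by cell type.

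*Clcf1*, a ligand that acts through the CNTF receptor (ENSMUSG00000040663, chr19:4214238-4223490, plus strand), gave 281 UMIs, 150 of them (53.4%) in microglia. Microglia held 30.2, 21.2, 14.6 and 22.3 CPM in Wt F1, F2, M1 and M2 and 49.1, 40.3, 14.0 and 14.1 in *Ifnar1*-/-. The knockout females were the highest libraries and the knockout males the lowest. The log2 fold change between genotypes was 0.15 (SE 0.43), and its sign turned without *Ifnar1*-/- F1 (-0.00) or F2 (-0.29).

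Counted over the tested classes, where *Cntfr* was left without a test, none of the other members passed the genotype contrast. It read 3 members in GABAergic interneurons, 3 in oligodendrocytes, 5 in microglia and 1 in oligodendrocyte precursors, and edgeR called 0 of them after Benjamini-Hochberg adjustment, with 0 at an unadjusted p under 0.05 and 0 called by DESeq2. The lowest unadjusted p was that of *Il11ra1* in oligodendrocytes (0.0970, edgeR). In the same fits edgeR called 4 of 14679 genes in GABAergic interneurons (0.0272%), 7 of 11094 in oligodendrocytes (0.0631%), 10 of 9558 in microglia (0.105%) and 0 of 2923 in oligodendrocyte precursors (0%). For the precursors 103 genes had an unadjusted p under 0.05 and DESeq2 called 1. Few genes of any kind passed this contrast, and the members' count lies near that share. DESeq2 called 17 in GABAergic interneurons and 15 in oligodendrocytes, and edgeR called 0 in microglia in nuclei with more than 2000 UMIs. With sex as a covariate, the counts were 10 in GABAergic interneurons, 17 in oligodendrocytes and 18 in microglia. With no filter beyond 1 UMI they were 12 in oligodendrocytes, 22 in microglia and 15 in oligodendrocyte precursors. With the replicate number as a block, the counts were 16 in oligodendrocytes, 19 in microglia and 1 in oligodendrocyte precursors. Leaving out 1 library moved the main edgeR counts, which fell to 2 in GABAergic interneurons (without Wt M1, *Ifnar1*-/- F2 or M2). In oligodendrocytes they fell to 2 without *Ifnar1*-/- F2 and to 3 without Wt M2, *Ifnar1*-/- M1 or M2. In microglia they fell to 3 without Wt F1 or *Ifnar1*-/- M1, to 4 without *Ifnar1*-/- M2 and to 6 without Wt M1, Wt M2 or *Ifnar1*-/- F1. The highest count in microglia without 1 library was 14.

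The levels of each member were next ordered over 20 cell types, as means over libraries of both genotypes with at least 10 nuclei of the type, in CPM of the UMIs of that type with no further normalization. *Cntfr* was highest in astrocytes at 187 ± 41.5 CPM (SD, n = 6), on 77 UMIs, followed by NP neurons (104 ± 81.1), oligodendrocyte precursors (97.1 ± 31.6), Car3 and claustrum neurons (95.0 ± 23.9), layer 5 ET neurons (91.7 ± 29.0), Vip interneurons (82.0 ± 19.4), layer 6 CT neurons (77.4 ± 49.7) and oligodendrocytes (71.1 ± 15.9). By UMIs per nucleus layer 5 ET neurons (1.30) came first, then Car3 and claustrum neurons (1.05) and NP neurons, and the log2 ratio of astrocytes over NP neurons turned to -0.46. With Wt libraries alone the order in CPM began with astrocytes (205 ± 38.4, n = 3), NP (177 ± 32.0, n = 4) and layer 6 CT neurons (123 ± 12.4, n = 4), and had a Spearman correlation of 0.934 with the order over both genotypes. The wide spread in NP and layer 6 CT neurons holds the genotype gap. In the CPM order each mean lay within 1 SD of the next, apart from that of astrocytes. Lamp5 interneurons (58.5 ± 14.8), layer 2/3 IT (51.0 ± 18.9), Pvalb (47.6 ± 8.09), layer 4 IT (46.9 ± 30.1), layer 6 IT (44.4 ± 17.5) and layer 5 IT types (42.4 ± 20.4) came next, then Sst interneurons (36.9 ± 8.76), perivascular macrophages (35.6 ± 42.4), striatal projection neurons (32.1 ± 6.28) and layer 6b neurons (25.2 ± 9.15). Newly formed oligodendrocytes (14.6 ± 10.9) and microglia (9.93 ± 6.89) stood last. No test is given for this order, since the genotype gap of *Cntfr* shapes it.

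For the other members, neighbours in the order were compared by an exact two-sided paired sign-flip permutation test over libraries. The pairs were set by the same means that were then compared. With *Cntfr* there were 133 neighbouring pairs, and the smallest p that 8 libraries allow is 0.0078125. Pairs at that p could pass the adjustment only if many of the 133 stood there. After Benjamini-Hochberg adjustment by this permutation test 0 pairs passed, the lowest adjusted p being 0.208, while 16 had an unadjusted p under 0.05 and 5 stood at the smallest p. Each p printed below for a pair is unadjusted, and neighbours said not to differ had an unadjusted p of 0.05 or more. For *Il11ra1*, *Lifr* and *Il6st* perivascular macrophages stood beside astrocytes, and only 4 libraries held both types, too few for this test to reach 0.05, so the order of these 3 pairs was not tested.

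*Il6ra* was highest in microglia (478 ± 83.2 CPM, n = 8) and then in perivascular macrophages (320 ± 64.7, n = 6), microglia being higher in 6 of 6 libraries (exact permutation p = 0.03125, the smallest that 6 libraries allow). Macrophages exceeded layer 6b neurons (9.46 ± 3.97) in 6 of 6 libraries, at the same exact p. Layer 6b, layer 6 CT (8.10 ± 3.66), astrocytes (6.57 ± 11.1, on 2 UMIs) and layer 6 IT (3.93 ± 1.44) did not differ between neighbours, and as astrocytes stood between them, layer 6 IT was not tested against layer 6b or layer 6 CT. Layer 6 IT exceeded layer 5 IT (1.78 ± 0.799) in 8 of 8 libraries (exact permutation p = 0.0078125). From there down to Pvalb interneurons (0.446 ± 0.665) no neighbours differed, and oligodendrocyte precursors held none. The high neuronal levels of *Il6ra* were thus those of layer 6.

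*Il11ra1* peaked in NP neurons at 156 ± 17.9 CPM, above layer 6 CT (55.0 ± 8.03) in 8 of 8 libraries (exact permutation p = 0.0078125). Layer 6 CT exceeded layer 5 ET (49.0 ± 3.98) in 7 of 8 (exact p = 0.03125), and layer 5 ET exceeded Pvalb interneurons (38.1 ± 1.77) in 8 of 8 (exact p = 0.0078125). Below these no neighbours that could be tested differed, from layer 4 IT (37.9 ± 4.02), perivascular macrophages (37.6 ± 42.4), astrocytes (36.2 ± 20.5), Car3 and claustrum (34.5 ± 9.09), microglia (32.5 ± 6.83), layer 5 IT (30.1 ± 4.15) and layer 6b (30.0 ± 5.47) to layer 6 IT (27.5 ± 2.44), layer 2/3 IT (27.2 ± 3.20), Sst (25.8 ± 3.75) and Vip interneurons (25.6 ± 7.52). Striatal projection neurons (23.8 ± 4.68), oligodendrocyte precursors (18.5 ± 13.6), Lamp5 interneurons (17.3 ± 3.22), newly formed (15.4 ± 9.75) and mature oligodendrocytes (12.5 ± 3.41) closed the order. By UMIs per nucleus NP neurons (1.13) were followed by layer 5 ET (0.685) and then by layer 6 CT neurons. The Spearman correlation between the 2 orders was 0.713.

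In CPM *Lifr* was highest outside the neurons, whereas by UMIs per nucleus, a scale that follows the UMIs of each nucleus, layer 5 ET (0.599) and layer 2/3 IT neurons (0.570) came first. In CPM, perivascular macrophages (220 ± 104, n = 6) and astrocytes (133 ± 71.9, n = 6) had the highest means, astrocytes did not differ from microglia (123 ± 13.7, n = 8) in the 6 libraries that held both, and microglia exceeded oligodendrocyte precursors (92.9 ± 22.8) in 7 of 8 libraries (exact permutation p = 0.0234). Oligodendrocytes (71.2 ± 9.46) exceeded layer 2/3 IT neurons (58.3 ± 8.499) in 8 of 8 (exact p = 0.0078125), and Pvalb interneurons (56.1 ± 8.88) exceeded layer 5 ET (43.1 ± 3.58) in 8 of 8 (exact p = 0.0078125). Among the neurons below them, layer 5 IT (39.4 ± 6.12) exceeded layer 4 IT (34.3 ± 5.23) in 6 of 8, and Sst interneurons (23.5 ± 2.28) exceeded layer 6 IT (20.1 ± 4.59) in 7 of 8 (exact p = 0.03125 each). Newly formed oligodendrocytes (30.9 ± 18.3), striatal projection (16.9 ± 5.29), Car3 and claustrum (16.8 ± 7.15), layer 6 CT (16.5 ± 3.94), NP (15.8 ± 3.79), Vip (13.1 ± 5.30), Lamp5 (11.5 ± 6.55) and layer 6b types (11.1 ± 3.03) did not differ from their neighbours. Among neurons, layer 2/3 IT and Pvalb types thus stood at the upper end in CPM and layer 6b at the lower.

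*Il6st* was highest in microglia at 205 ± 36.2 CPM, above perivascular macrophages (76.3 ± 70.8) in 6 of 6 libraries (exact permutation p = 0.03125). No neighbours differed from astrocytes (50.0 ± 21.6) over oligodendrocyte precursors (47.8 ± 19.8), newly formed (45.4 ± 26.5) and mature oligodendrocytes (35.6 ± 6.34) and Vip (31.8 ± 5.93) to Pvalb interneurons (29.4 ± 3.38). Pvalb exceeded Sst interneurons (23.2 ± 2.46) in 7 of 8 libraries (exact p = 0.0156). Lamp5 interneurons (21.7 ± 5.23), striatal projection neurons (18.9 ± 2.04) and the 9 glutamatergic types followed, from 17.8 ± 2.17 in layer 5 ET down to 12.9 ± 1.81 in layer 4 IT, with no neighbours apart. In CPM every interneuron type thus had a higher mean than every glutamatergic type, a difference that was tested only between neighbours. By UMIs per nucleus this did not hold, as microglia (0.299) were followed by Pvalb interneurons (0.257) and then by layer 5 ET neurons, with a Spearman correlation of 0.314 between the 2 orders.

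The scarce members had little order to give. *Clcf1* stood at 24.7 ± 12.2 CPM in microglia and exceeded astrocytes (1.32 ± 3.24, on 1 UMI) in 6 of 6 libraries (exact permutation p = 0.03125). No other type had a mean over 0.481 CPM, that of layer 5 IT neurons. *Osmr* had its highest mean in astrocytes (2.13 ± 5.22 CPM), from 1 of 6 libraries, and stood between 0.109 and 0.655 CPM in the other types that held any.

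**Figure D2:**
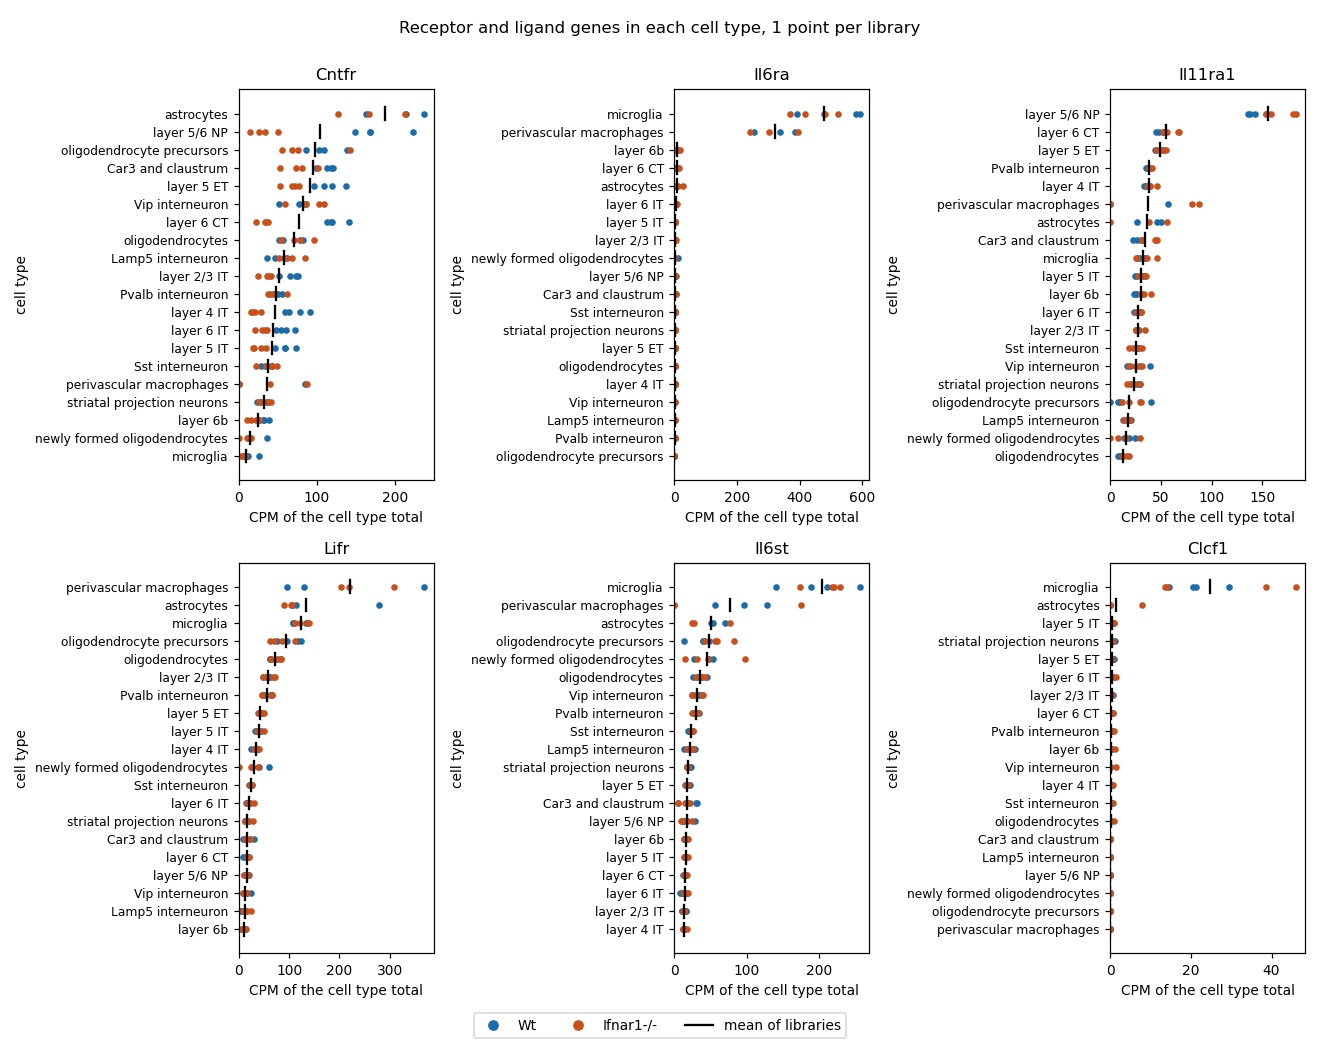
*Cntfr*, *Il6ra*, *Il11ra1*, *Lifr*, *Il6st* and *Clcf1* in CPM of the cell type total (horizontal axes) in each cell type (vertical axes, in order of the mean), 1 point for each library with at least 10 nuclei of the type, coloured by genotype, with a black line at the mean of the libraries. *Il6ra* and *Il6st* were highest in microglia (478 and 205 CPM on average) and *Il11ra1* in NP neurons (156).

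Over all 20 cell types the gene with the pattern most like *Cntfr* was *Plcb4*, a phospholipase C, with a Pearson correlation of 0.82 between log2 mean levels. *Lurap1* (0.82), *Gm14211* (0.77), *Ccdc88a* (0.77) and *Dtna* (0.77) followed among 14483 genes. All 5 were highest in astrocytes. With Wt libraries alone the correlations were 0.78, 0.65, 0.66, 0.72 and 0.73, and the genes ranked 1, 38, 32, 8 and 7. Between the members, *Cntfr* and its neighbour *Il11ra1* correlated at 0.29 over 20 types and 0.53 over 13 neuron types. The points share their libraries and differ in depth, and these values are a description.

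Sex was the contrast in which members passed a test. In oligodendrocytes *Cntfr* stood at 73.2, 83.2, 93.9 and 77.1 CPM in Wt M1, Wt M2, *Ifnar1*-/- M1 and M2, and at 58.0, 55.4, 56.8 and 74.6 in the females in the same order. The male libraries were higher but for *Ifnar1*-/- F2, which lay above Wt M1. The male minus female log2 fold change was 0.41 (SE 0.13, Benjamini-Hochberg adjusted p = 0.0337, edgeR). By DESeq2 the adjusted p was 0.0935, and by edgeR in nuclei with more than 2000 UMIs it was 0.0895. The edgeR adjusted p by Benjamini-Hochberg was 0.0776 without Wt F1, 0.101 without Wt F2, 0.114 without Wt M2, 0.0813 without *Ifnar1*-/- F1 and 0.0936 without *Ifnar1*-/- M1, so the call rested on each of them. The 6 glutamatergic marker genes were also higher in the male oligodendrocytes. In the same order they summed to 202, 156, 155 and 274 CPM in males and to 97.3, 93.7, 147 and 64.3 in females. Their part in the *Cntfr* difference was not tested.

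*Lifr* ran in the opposite direction in the same cells. The males held 57.0, 63.3, 62.2 and 62.5 CPM in the order above, and the females held 75.4, 90.1, 81.4 and 87.8. Every female library lay above every male library, with a log2 fold change of -0.45 (SE 0.12, Benjamini-Hochberg adjusted p = 0.0129, edgeR). The call was lost without Wt F2 (adjusted p = 0.0593 by edgeR and Benjamini-Hochberg) or Wt M1 (0.0544), with library size scaling in place of TMM (0.0504), and in nuclei with more than 2000 UMIs (0.0906). *Il11ra1* (-0.30, SE 0.25) and *Il6st* (-0.13, SE 0.18) did not pass in these cells.

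In microglia, *Clcf1* was the member that passed, at 14.6, 22.3, 14.0 and 14.1 CPM in Wt M1, Wt M2, *Ifnar1*-/- M1 and M2 and at 30.2, 21.2, 49.1 and 40.3 in the females. Wt M2 and Wt F2 overlapped, and the remaining males lay under the remaining females. The log2 fold change was -0.97 (SE 0.29, Benjamini-Hochberg adjusted p = 0.0319, edgeR) on 150 UMIs. By edgeR and Benjamini-Hochberg the adjusted p was 0.0717 without Wt F1, 0.0705 without Wt M1, 0.176 without *Ifnar1*-/- F2, 0.0665 without *Ifnar1*-/- M1 and 0.0652 without *Ifnar1*-/- M2. Males minus females, the genotype differences of *Clcf1* differed by -1.14 (SE 0.54) and those of *Il11ra1* by -0.90 (SE 0.44), each with an adjusted p of 1.00 by edgeR and Benjamini-Hochberg.

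Several values lay just outside the threshold. *Cntfr* in GABAergic interneurons averaged 56.1 ± 4.36 CPM in males and 45.0 ± 6.22 in females (log2 fold change 0.32, SE 0.11, Benjamini-Hochberg adjusted p = 0.0516, edgeR), and it passed with library size scaling (0.0278), with no filter on low counts (0.0389) and without *Ifnar1*-/- F2 (0.0396). *Il6ra* in glutamatergic neurons averaged 2.49 ± 0.658 and 3.36 ± 0.423 CPM (-0.45, SE 0.16, Benjamini-Hochberg adjusted p = 0.0508, edgeR), and passed without *Ifnar1*-/- F2 (0.0362) or M2 (0.0488). The 7 microglial marker genes were also lower in the males in these neurons, from 81.1 to 103 CPM against 106 to 167 in the females. Their part in the *Il6ra* difference by sex was not tested. *Cntfr* in glutamatergic neurons (0.20, SE 0.13) and *Il6ra* in microglia (-0.24, SE 0.15) did not pass.

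**Figure D3:**
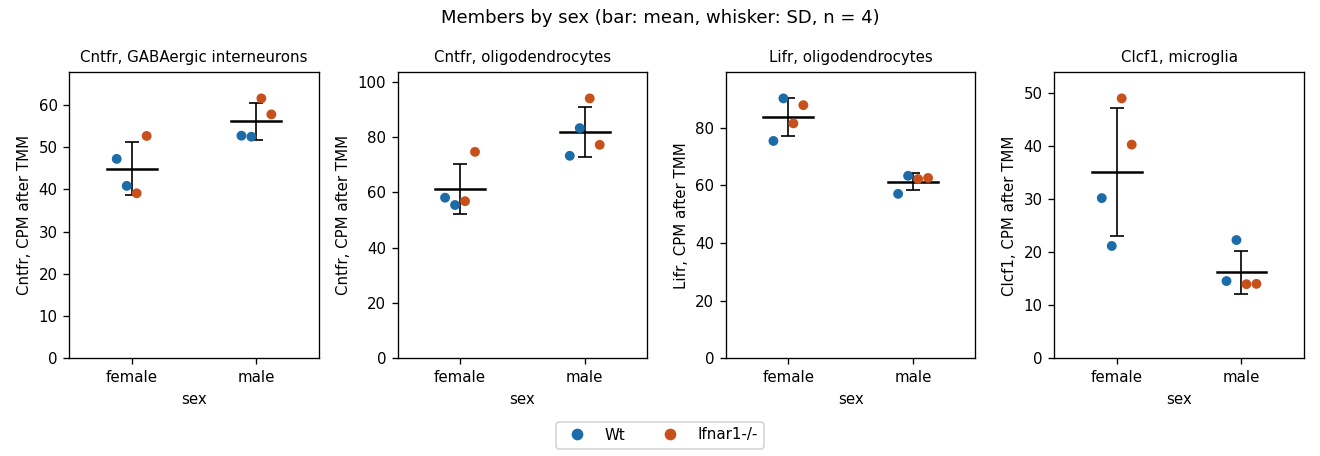
*Cntfr* in GABAergic interneurons and oligodendrocytes, *Lifr* in oligodendrocytes and *Clcf1* in microglia in CPM after TMM normalization (vertical axes) by sex (horizontal axis), 1 point for each library coloured by genotype, with bars at the mean and whiskers of 1 SD (n = 4 per sex). *Lifr* in oligodendrocytes did not overlap between males (57.0 to 63.3 CPM) and females (75.4 to 90.1 CPM).

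These counts sit in a contrast in which many genes passed. With edgeR and Benjamini-Hochberg, 0 of 6 members passed in glutamatergic neurons, 0 of 4 in GABAergic interneurons, 2 of 4 in oligodendrocytes, 1 of 5 in microglia and 0 of 2 in oligodendrocyte precursors. The counts at an unadjusted p under 0.05 were 1, 1, 2, 1 and 0, and DESeq2 called 0, 0, 1, 1 and 0. Of all genes tested, edgeR called 5678 of 18881 in glutamatergic neurons (30.1%), 3791 of 15037 in GABAergic interneurons (25.2%), 2607 of 11428 in oligodendrocytes (22.8%), 1896 of 10007 in microglia (18.9%) and 136 of 3308 in oligodendrocyte precursors (4.11%). In nuclei with more than 2000 UMIs these counts fell to 100 in microglia, where no fold change of *Clcf1* by sex was fitted, and to 1545 in oligodendrocytes, and DESeq2 called 54 in the precursors. Set beside these shares, the members' counts are no result about the members as a group. Female and male nuclei also fell into different clusters, with 93.1%, 7.0% and 97.3% male nuclei in the 3 clusters of microglia and from 7.9% to 93.0% in the 5 of oligodendrocytes. Knockout nuclei were 34.8%, 35.3% and 92.3% of the same clusters of microglia and from 28.0% to 77.3% of those of oligodendrocytes, where *Ifnar1*-/- M2 alone gave 89.1% of 1 microglial cluster and *Ifnar1*-/- F1 72.6% of 1 oligodendrocyte cluster. The part of this in the genotype and sex values of these classes was not tested. The labels give no batch, and the sex of an animal and the handling of its tissue cannot be told apart.

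The counts of genes that passed by sex also moved with the libraries included. The lowest were 3445 in glutamatergic neurons without *Ifnar1*-/- M1 (3467 without Wt F2, 3518 without Wt M2), 2081 in GABAergic interneurons without Wt M2 (2236 without Wt F2, 2249 without *Ifnar1*-/- M1), 1579 in oligodendrocytes without Wt F2, and 912 in microglia without *Ifnar1*-/- F2 (1206 without Wt F2, 1138 without Wt M2). In oligodendrocyte precursors the count was 42 without Wt M1, 61 without Wt M2, 82 without Wt F2 and 87 without *Ifnar1*-/- M1. The genotype by sex interaction passed for no gene with edgeR, 0 of 19298, 15439, 11848, 10539 and 3850 (0%) in the 5 classes in the order above, where 350, 285, 319, 251 and 151 had an unadjusted p under 0.05 and DESeq2 called 0 in each. In the precursors it rose to 9 without *Ifnar1*-/- F1, and to between 1 and 4 without Wt F1, Wt M1 or *Ifnar1*-/- F2, M1 or M2. In nuclei with more than 2000 UMIs it was 23 in microglia.

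Ligands of the family were scarce in these nuclei. *Cntf* gave 0 UMIs, and its annotation (chr19:12763660-12765632, minus strand) lies wholly within *Zfp91* on the same strand, which gave 15554, so that its count cannot be told apart from the way overlapping genes are counted. *Lif* gave 2 UMIs, *Osm* 17 (15 in microglia), *Il31* 12, *Il6* 100 (61 in microglia) and *Il11* 160. *Ctf1* gave 310, *Ctf2* 658, *Il27* 477 and *Ebi3* 544 (230 in microglia). Of the other receptors *Il27ra* gave 74 UMIs, *Il31ra* 570 and *Il11ra2* 0, the last a close copy of *Il11ra1* whose reads may not have been assigned.

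In the genotype contrast none of the other pathway genes passed. With edgeR and Benjamini-Hochberg 0 of 25 passed in GABAergic interneurons (0.0272% of all genes tested), 0 of 19 in oligodendrocytes (0.0631%), 0 of 22 in microglia (0.105%) and 0 of 7 in oligodendrocyte precursors (0%). At an unadjusted p under 0.05 there were 0, 0, 2 and 0, and DESeq2 called 0 in each. Their median log2 fold changes were -0.06, -0.05, -0.06 and -0.12, against 0.00, 0.00, -0.00 and -0.01 over all genes tested. In glutamatergic neurons the median of 35 was -0.04, beside 0.00 over all genes, given as a description.

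By sex, 13 of 35 other pathway genes passed in glutamatergic neurons with edgeR and Benjamini-Hochberg, 11 higher in males and 2 lower, in a contrast that called 30.1% of all genes tested, and no result about the list as a group is read from it. The median of the 35 log2 fold changes was 0.23, and that of all genes -0.00. *Cebpb*, a transcription factor gene induced by STAT3, stood at 6.16 ± 0.296 CPM in males and 0.643 ± 0.186 in females (log2 fold change 3.25). *Junb*, an immediate early gene, stood at 37.5 ± 5.39 and 12.8 ± 7.02 CPM (1.62), and *Cebpd* at 1.18 ± 0.268 and 0.357 ± 0.118 (1.72). *Ctf1* (0.93), *Hif1a* (0.53) and the phosphatase gene *Ptpn11* (0.47) were also higher in males. *Il27*, which encodes a cytokine subunit, was lower in males at 0.480 ± 0.146 against 1.63 ± 0.317 CPM (-1.77), and *Timp1* was lower by the same test (-0.93). Among the feedback inhibitors, *Socs1* (1.03) lost its call without Wt M2 (adjusted p = 0.0554 by edgeR and Benjamini-Hochberg). *Socs3* (0.80), *Mcl1* (0.57) and *Il31ra* (0.69) lost theirs in most of the fits with 7 libraries.

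Those 3 calls depended on single libraries as follows, each as an edgeR adjusted p by Benjamini-Hochberg. *Socs3* was lost without any of Wt F1, F2 or M2 or *Ifnar1*-/- F1, F2 or M1 (0.0535 to 0.142). *Mcl1* was lost without any Wt library or *Ifnar1*-/- F2 or M1 (0.0509 to 0.134). *Il31ra* was lost without any library but Wt M1 (0.0513 to 0.1202), and by DESeq2 (0.0689).

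In the other classes *Cebpb* and *Junb* passed again in the same direction. *Cebpb* had log2 fold changes of 3.54 (SE 0.36) in GABAergic interneurons, 2.90 (SE 0.54) in oligodendrocytes and 2.82 (SE 0.33) in microglia, and *Junb* 1.49 (SE 0.26), 2.00 (SE 0.34) and 1.30 (SE 0.29), the last lost without *Ifnar1*-/- F2 (adjusted p = 0.0555 by edgeR and Benjamini-Hochberg). With edgeR 6 of 27 other pathway genes passed in GABAergic interneurons (25.2% of all genes tested), 3 of 19 in oligodendrocytes (22.8%), 3 of 23 in microglia (18.9%) and 0 of 8 in oligodendrocyte precursors (4.11%), where 1 had an unadjusted p under 0.05. DESeq2 called 3, 2, 2 and 0 in these classes, and 13 in glutamatergic neurons. The interneurons added, among others, *Mcl1* (0.56), *Ptpn11* (0.38) and *Socs2* (0.33), each higher in males. *Ptpn11* was lost without Wt M2 (0.0513) or *Ifnar1*-/- M1 (0.0508), *Mcl1* without Wt F1, F2 or M2 or *Ifnar1*-/- F2 or M1 (0.0598 to 0.138), and *Socs2* without any of 6 libraries, Wt F1 and *Ifnar1*-/- M2 being the exceptions (0.0703 to 0.155). *Mcl1* and *Socs2* in interneurons also lost the call by DESeq2 (Benjamini-Hochberg adjusted p = 0.0551 and 0.0829) and by edgeR with doublets kept (0.0626 and 0.0529). Oligodendrocytes added the inhibitor *Pias3*, lower in males (-0.76), lost without any library but *Ifnar1*-/- F1 or M1 (0.0736 to 0.143), by DESeq2 (Benjamini-Hochberg adjusted p = 0.0864), and by edgeR with library size scaling (0.0855) and in nuclei with more than 2000 UMIs (0.0570). Microglia added *Adam17*, the protease that sheds IL-6 receptor, lower in males (-0.42), lost without any library but Wt M2 or *Ifnar1*-/- F1 (0.0611 to 0.176), by DESeq2 (Benjamini-Hochberg adjusted p = 0.0722), and by edgeR with no filter on low counts (0.0688) and in nuclei with more than 2000 UMIs (0.408).

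Promoter sequences were available for 6 of the 7 members, 13 windows of 300 bases from RefSeq on GRCm38.p6, each from 250 bases before to 50 after an annotated start. They were searched on both strands for the STAT-binding GAS motif TTCNNNGAA, the interferon-response motif (ISRE, GAAA, any 2 bases, GAAA) and the ETS motif GGAAGT, chosen after the data were seen and counted even where matches overlapped. The first was in 0 of 13 windows and in 8.30% of 32851 mouse promoters, the second in 0 of 13 and in 3.44%, and the third in 3 of 13 and in 23.8%. The third was found in *Il6ra* (2 matches), in an *Il11ra1* window (2 matches) and in *Osmr* (1 match). *Cntfr* has 6 of the windows, with G and C from 51.3% to 78.7% and from 3 to 47 CpG dinucleotides, none with a match. Its window at chr4:41695404-41695703 (minus strand), chosen after these values were seen and level with 1 other for the most G and C, had 78.7% and 45 CpG against medians of 52.7% and 7 over all promoters. The *Il6ra* window at chr3:89913147-89913446 (minus strand) had 66.0% G and C and 25 CpG. These windows are shown because *Cntfr* and *Il6ra* carried the genotype gap and the microglial pattern described above. Capitals mark the ETS motif, and a match or its absence describes these letters alone.
Cntfr: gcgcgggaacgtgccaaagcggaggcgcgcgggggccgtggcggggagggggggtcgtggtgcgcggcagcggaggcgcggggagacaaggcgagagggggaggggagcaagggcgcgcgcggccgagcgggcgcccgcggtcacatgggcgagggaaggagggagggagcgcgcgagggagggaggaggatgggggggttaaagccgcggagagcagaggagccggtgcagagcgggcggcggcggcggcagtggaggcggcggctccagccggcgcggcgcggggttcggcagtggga
Il6ra: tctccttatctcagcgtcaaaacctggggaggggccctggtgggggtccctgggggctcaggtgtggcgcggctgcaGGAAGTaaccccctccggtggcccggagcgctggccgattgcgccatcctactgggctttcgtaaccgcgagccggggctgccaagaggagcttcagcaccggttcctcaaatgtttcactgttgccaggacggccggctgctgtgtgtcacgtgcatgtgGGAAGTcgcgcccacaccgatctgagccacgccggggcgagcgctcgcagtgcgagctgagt

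The precision of these values follows the depth. Glutamatergic neurons held between 26384579 and 38528228 UMIs a library, oligodendrocytes between 1439989 and 2887743, and microglia between 173791 and 1269943, so a difference of a given size was easier to detect in the neurons. Counts from nuclei include unspliced RNA, and a level in CPM follows gene length and intron content, for which reason members were not ranked against each other. Where a member did not pass, a difference smaller than its standard error allows was not detectable at this depth. The values come from 4 animals a genotype and 2 a sex within genotype.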

How the data were processed

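The deposited files hold UMI counts per gene and barcode for each library, which the authors made with Cell Ranger on a pre-mRNA reference, so that introns are included. Nuclei with 200 to 6000 genes, more than 1000 UMIs and under 10% mitochondrial counts were kept, and doublets were removed with Scrublet (scanpy 1.11.5). Clusters (Leiden, leidenalg 0.10.2, resolution 2, 40 components of 3000 variable genes) left out the genes studied, and were named from marker lists, with thresholds for naming set after the data were seen. Counts were summed per cell type and library and fitted with edgeR 4.0.16 (quasi-likelihood, TMM, Benjamini-Hochberg over all genes tested), with DESeq2 1.42.0 as an alternative, in R 4.3.3. Named genes are all 7 members, every ligand and receptor of the pathway list, any listed gene past an adjusted p of 0.05, and the 5 genes most like *Cntfr* (at least 10 CPM in a type). The values of 1 listed gene are not reported here. The members and lists were chosen with earlier results of these data known. As a pairing check, libraries of the same number were correlated across genes between genotypes (r from 0.544 to 0.746 in glutamatergic neurons), but a shared number also means a shared sex, and pairs of the same sex with another number averaged 0.695. The labels give no pairing, so the number was used as a block in an alternative only. The steps were tested on simulated data.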

Additional observations from a re-analysis of the deposited data

Results flagged for a closer look

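*Il6st* in microglia of *Ifnar1*-/- M2 stood at 172 CPM, apart from the other 3 knockout libraries at 229 to 239 CPM. Its gap to the nearest library, divided by the range of the group, was 0.847, above Dixon's critical value for 4 samples at the 0.05 level. It was the single such value in 42 groups of 4 libraries, where 1 group in 20 passes by chance alone, or 2.1 groups. Wt M2 was the lowest Wt library for *Il6st* as well, at 148 CPM. 1 of the 3 clusters of microglia was 89.1% *Ifnar1*-/- M2, and its part in this value was not tested. No cause was tested.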

How the results depend on the processing

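Of the log2 fold changes under other settings, 642 stayed the same, 81 lost the call, 5 gained it and 19 changed sign. A tested value stayed the same where it kept its sign and side of the threshold. A value given as a description has no threshold, and stayed the same where it kept its sign and moved by less than the SD within genotypes. Genes called between genotypes: by DESeq2 42 in glutamatergic neurons, 17 in GABAergic interneurons, 15 in oligodendrocytes and 1 in oligodendrocyte precursors. With sex as a covariate they were 26, 10 and 17 in the first 3 classes and 18 in microglia. With no filter beyond 1 UMI they were 12 in oligodendrocytes, 22 in microglia and 15 in the precursors, and in nuclei with more than 2000 UMIs 0 in microglia. With the replicate number as a block they were 16 in oligodendrocytes, 19 in microglia and 1 in the precursors. Leaving out 1 library gave 4 to 9 in glutamatergic neurons, 2 to 4 in GABAergic interneurons, 2 to 7 in oligodendrocytes and 3 to 14 in microglia. Between sexes the counts were 1545 (oligodendrocytes) and 100 (microglia) above 2000 UMIs, and 54 by DESeq2 and 223 with no filter in the precursors. Leaving out 1 library gave 3445 to 6584, 2081 to 4663, 1579 to 2758, 912 to 2263 and 42 to 135 in the 5 classes in the order glutamatergic, GABAergic, oligodendrocytes, microglia and precursors. The interaction gave 10 (GABAergic), 3 (oligodendrocytes) and 5 (precursors) with no filter, 23 in microglia above 2000 UMIs, 1 in the precursors with doublets kept, and 0 to 9 there without 1 library.

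Members changed sign between genotypes as follows. *Lifr* was -0.063 in oligodendrocytes and -0.19 in microglia above 2000 UMIs. Without 1 library, *Clcf1* ran from -0.32 to 0.12 in glutamatergic neurons and from -0.29 to 0.45 in microglia. In GABAergic interneurons *Il11ra1* ran from -0.090 to 0.020, *Lifr* from -0.17 to 0.049 and *Il6st* from -0.058 to 0.047. *Lifr* ran from -0.051 to 0.17 in oligodendrocytes. In microglia *Il11ra1* ran from -0.14 to 0.12 and *Il6st* from -0.043 to 0.21. None of these differences had passed the test, and that of *Clcf1* in glutamatergic neurons was given with no test. For levels as UMIs per nucleus, the log2 ratio of *Cntfr* in astrocytes over NP neurons was -0.46, that of *Il11ra1* in NP over layer 6 CT neurons 1.24 and that of *Clcf1* in microglia over layer 5 IT neurons 2.53, a scale that follows the UMIs of each nucleus. Above 2000 UMIs perivascular macrophages were too few for the *Il6ra*, *Lifr* and *Il6st* ratios. The cause of the other changes was not tested. Depth limits *Osmr* and *Clcf1*, with 107 and 281 UMIs.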
